A study of Rattus norvegicus with 6 samples.

Results

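A group of 10 genes of amino acid transport was read, named by symbol: Slc7a11, Slc7a5, Slc3a2, Slc7a1, Slc7a3, Slc38a1, Slc38a2, Slc38a3, Slc1a4 and Slc1a5. All 10 were found among the 37183 symbols of the deposited table, and all 10 had a value in every library. They were measured in primary cultures of rat hippocampal astrocytes and of rat hippocampal neurons, by sequencing of ribosome-depleted total RNA. The 6 groups, with 1 library each, were a control (0 h), 6 h of insulin and 12 h of insulin for either cell type, with insulin at 200 nM. The study asks how insulin bears on lipid metabolism in the brain.

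Astrocyte cultures were grown in DMEM/F12 with 10% fetal bovine serum and 25 mM glucose, and were moved to 2% serum and 5 mM glucose 4 h before treatment. Neuron cultures were kept in serum-free Neurobasal with 1% B27, a supplement that holds insulin in its usual form, and received its insulin-free form 4 h before treatment. The control is titled saline and elsewhere called untreated, and it was taken at the start. Insulin therefore cannot be told apart from time in the new medium, nor cell type from medium. Strain, age, sex and pooling of the animals are not given in the sources read.

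Transporters of this group carry amino acids across the plasma membrane. Slc3a2 encodes the heavy chain (4F2hc, CD98) that brings several light chains to the cell surface. Its light chain Slc7a5 (LAT1) exchanges large neutral amino acids such as leucine, and its light chain Slc7a11 (xCT) takes up cystine in exchange for glutamate, which feeds glutathione synthesis. Slc7a1 and Slc7a3 are cationic amino acid transporters for arginine and lysine and need no heavy chain. Slc1a4 (ASCT1) and Slc1a5 (ASCT2) exchange small neutral amino acids, Slc1a5 glutamine as well. Slc38a1, Slc38a2 and Slc38a3 are sodium-coupled transporters of glutamine, alanine and related amino acids, and Slc38a3 is known in brain as a glutamine transporter of astrocytes. Leucine and glutamine supply is sensed by the kinase complex mTORC1, and shortage of amino acids raises several of these genes through the transcription factor ATF4.

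Start-site sequences were taken from RefSeq (assembly GRCr8, while the submitters' processing notes name another build) for 7 of the 10 genes. The sequences of 4 are shown, each the 250 bases before the annotated start, 5′ to 3′ on the gene's strand. Slc7a11 is shown because it differed most after insulin among the 7, and the other 3 because they hold the core letters of an amino acid response element, the kind of site through which ATF4 acts. Capitals mark matches on either strand to that core, TGATGNAA, or to the core of the antioxidant response element, TGACNNNGC.
Slc7a11, GRCr8 chr2:136668265-136668514, minus strand: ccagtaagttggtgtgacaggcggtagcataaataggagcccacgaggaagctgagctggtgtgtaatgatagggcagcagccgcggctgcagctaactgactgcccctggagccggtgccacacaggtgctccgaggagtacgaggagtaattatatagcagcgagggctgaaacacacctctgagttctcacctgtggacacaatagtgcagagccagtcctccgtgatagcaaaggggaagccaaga
Slc7a1, GRCr8 chr12:11664238-11664487, plus strand: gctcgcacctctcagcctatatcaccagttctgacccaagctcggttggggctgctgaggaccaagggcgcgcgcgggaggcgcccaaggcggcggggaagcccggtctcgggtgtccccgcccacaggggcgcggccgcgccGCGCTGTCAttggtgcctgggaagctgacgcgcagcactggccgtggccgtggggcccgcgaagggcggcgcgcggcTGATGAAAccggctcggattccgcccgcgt
Slc38a1, GRCr8 chr7:129681402-129681651, minus strand: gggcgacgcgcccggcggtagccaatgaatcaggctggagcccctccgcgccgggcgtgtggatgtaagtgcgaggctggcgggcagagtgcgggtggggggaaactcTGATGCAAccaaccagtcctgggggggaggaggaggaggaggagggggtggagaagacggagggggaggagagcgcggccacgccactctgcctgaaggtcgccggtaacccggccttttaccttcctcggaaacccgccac
Slc1a4, GRCr8 chr14:98761563-98761812, minus strand: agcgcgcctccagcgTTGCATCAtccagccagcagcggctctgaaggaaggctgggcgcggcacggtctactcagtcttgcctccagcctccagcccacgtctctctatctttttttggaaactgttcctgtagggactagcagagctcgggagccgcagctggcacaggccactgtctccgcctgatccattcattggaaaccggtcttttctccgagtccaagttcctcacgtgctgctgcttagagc

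The amino acid response core was present in 3 of the 7 genes, Slc7a1, Slc38a1 and Slc1a4, and in 3.4% of all 33469 start-site windows of the same length. The match in Slc7a1 reads TGATGAAA and lies 30 to 23 bases before the start. In Slc38a1 it reads TGATGCAA and lies 142 to 135 bases before it. The match in Slc1a4 is on the opposite strand, written TTGCATCA along the gene, 235 to 228 bases before the start. The antioxidant core was found in Slc7a1, Slc38a2 and 1 of 2 start sites of Slc3a2, and in 10.1% of all windows. The palindromic E-box letters CACGTG were found in Slc1a4 and Slc7a5, and in 5.59% of all windows, and none of the matches in members overlapped another. None of the 3 motifs was found in this window of Slc7a11. A match is a run of letters and was not tested for binding, and the letters were searched only in these windows.

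Values are log2 FPKM (fragments per kilobase, corrected for library size) after quantile normalisation across the 6 libraries. Levels are printed as FPKM, which is per length. The gene lengths used are not given, so shares and ratios between genes rest on lengths that could not be checked. A difference is a log2 value minus another. A gene counted as compared when both libraries had a value and 1 of them reached 1 FPKM, and as higher or lower at a difference of 1, which is 2-fold. There is no replicate of any group, so no difference has an error and none was tested, and the depth of the libraries is unknown. The words rose and fell are kept for differences that reached 2-fold. Of the members, 4 reached 1 FPKM in the astrocyte-labelled control and 5 in each of its insulin libraries. In the neuron-labelled control 9 reached it, and in both of its insulin libraries all 10 did. Over all symbols, 5781 reached 1 FPKM before insulin in the astrocyte-labelled cultures, 6014 after 6 h of it and 6035 after 12 h. The neuron-labelled cultures had 6042 such symbols before insulin, 6442 after 6 h and 6447 after 12 h. The count was thus larger after insulin for symbols at large as well, and the members are not set apart by theirs.

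The cultures went partly against their names. Astrocyte markers summed to between 31.6 and 37.7 FPKM in the libraries labelled astrocyte and to between 345 and 383 FPKM in those labelled neuron, for a list of 10. The astrocyte water channel gene Aqp4 was at 0.0985 FPKM in the control labelled astrocyte against 26.6 FPKM in that labelled neuron, and the astrocytic glutamate transporter gene Slc1a3 at 0.115 against 10.4 FPKM. The neuron-labelled libraries also held neuron markers (54.7 to 59.1 FPKM over 11 genes, against 2.58 to 3.06 FPKM). Among these the excitatory markers Slc17a7 and Slc17a6 were below 0.01 FPKM. Oligodendrocyte lineage markers summed to between 111 and 118 FPKM there over 8 genes, against 3.63 to 3.95 FPKM. Most of that sum was Olig1 and Olig2, at 80.6 and 25.9 FPKM in the neuron-labelled control. Mog and Cspg4 of that list went the other way, at 2.21 and 1.32 FPKM in the astrocyte-labelled control against 1.69 and 0.397 FPKM. Smooth muscle and pericyte markers summed to between 425 and 504 FPKM in the astrocyte-labelled libraries and to between 4.52 and 10.6 FPKM in the neuron-labelled ones, over 6 genes. Most of the former sum was Tagln, at 353 FPKM in the control, with Acta2 at 54.4, Cnn1 at 14.2 and Pdgfrb at 2.88 FPKM. Myh11 and Rgs5 of the same list were below 0.01 FPKM in the astrocyte-labelled libraries. For fibroblast markers the ranges were 90.3 to 110 FPKM and 0.0697 to 0.249 FPKM, over 5 genes, of which Dcn and Lum were below 1 FPKM throughout. Markers of microglia and of endothelial cells were below 1 FPKM throughout. The libraries are therefore called astrocyte-labelled and neuron-labelled, and each value below is that of a mixed culture, in which fewer cells of a type and less RNA per cell cannot be told apart.

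The control libraries differed in which transporters they held. In the astrocyte-labelled control, Slc38a2 made up 68.2% of the summed FPKM of the 10 genes, Slc3a2 13.8%, Slc7a5 5.91% and Slc1a4 5.90%. In the neuron-labelled control Slc3a2 made up 36.9%, Slc7a5 18.2%, Slc38a3 11.2%, Slc38a2 9.47% and Slc7a11 8.08%. The sum itself was 27.2 FPKM in the former and 65.0 FPKM in the latter. Of the 10 genes 9 were compared between the controls, 7 were at least 2-fold higher in the neuron-labelled one and 1, Slc38a2, in the astrocyte-labelled one. Over all 7146 genes compared, 40.6% differed by 2-fold, 21.9% being higher in the neuron-labelled control and 18.7% in the astrocyte-labelled one. The median difference of the 9 members, astrocyte-labelled minus neuron-labelled, was -2.88, against -0.10 for all genes. All of the 7 passed the 1 FPKM minimum through the neuron-labelled library or both, so the median is a description of the genes that passed.

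**Figure D1:**
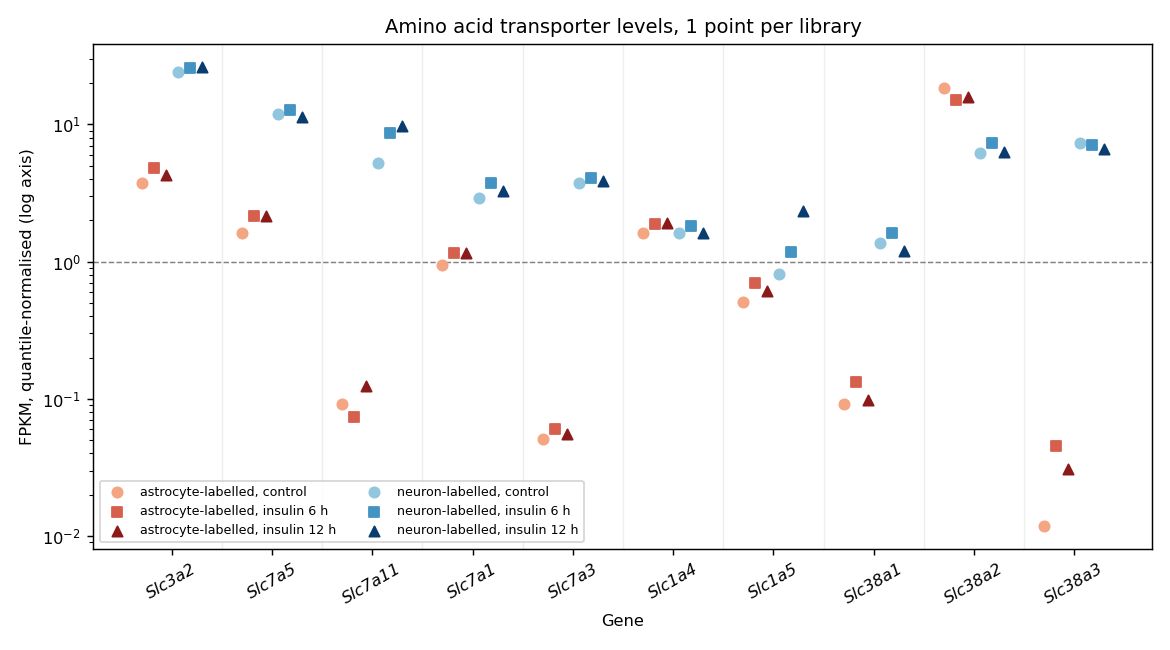
Level of each of the 10 genes in each of the 6 libraries, in quantile-normalised FPKM on a log axis, 1 point per library, with a dashed line at 1 FPKM. Slc38a2 is highest in the 3 astrocyte-labelled libraries (15.0 to 18.6 FPKM), while Slc38a3, Slc7a3, Slc7a11 and Slc38a1 lie below 0.2 FPKM there and above 1 FPKM in all neuron-labelled libraries.

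The heavy chain gene Slc3a2 was at 3.76, 4.83 and 4.27 FPKM in the astrocyte-labelled control, 6 h and 12 h libraries, and at 24.0, 25.6 and 26.2 FPKM in the neuron-labelled ones. All neuron-labelled values lay above all astrocyte-labelled ones, and between the controls the gap was 6.38-fold. Its light chain gene Slc7a5 was at 1.61, 2.13 and 2.16 FPKM in the astrocyte-labelled libraries and at 11.8, 12.8 and 11.3 FPKM in the neuron-labelled ones. The gap between the controls was 7.34-fold, close in size to that of the heavy chain.

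Slc7a11, the cystine carrier, was at 0.0924, 0.0733 and 0.125 FPKM in the astrocyte-labelled libraries. In the neuron-labelled libraries it was at 5.25, 8.58 and 9.78 FPKM. Among symbols with a value it ranked above 42.4% in the astrocyte-labelled and above 92.7% in the neuron-labelled control, and the difference between them was -5.83. Genes of glutathione synthesis, which use the cystine that Slc7a11 brings in, did not share so wide a gap. Gclc, the catalytic subunit of the first enzyme, was at 3.87 FPKM in the astrocyte-labelled against 2.51 FPKM in the neuron-labelled control. Gclm, its modifier subunit, was at 0.758 and 1.45 FPKM. Of 12 genes of glutathione synthesis and NRF2 targets, 10 were compared between the astrocyte-labelled and neuron-labelled controls, with 2 of them at least 2-fold higher in the former and 3 in the latter control. The same was true of 18.7% and 21.9% of all compared genes. Of the 3, Hmox1 and Srxn1 had wide gaps in the direction of Slc7a11, at -4.39 and -3.36. The other 2, Nqo1 and Nfe2l2, differed by 1.20 and 1.03.

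Of the cationic carriers, Slc7a1 was at 0.937, 1.15 and 1.15 FPKM in the astrocyte-labelled libraries and at 2.91, 3.75 and 3.25 FPKM in the neuron-labelled ones. Slc7a3 was at 0.0508, 0.0607 and 0.0550 FPKM in the former and at 3.77, 4.09 and 3.88 FPKM in the latter. The ratio of Slc7a1 to Slc7a3 was thus 18.5 in the former control and 0.771 in the latter. Another gene of this family, Slc7a2, which was no member, was below 0.5 FPKM in all libraries.

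The sodium-coupled carriers went in opposite directions between the controls. Slc38a2 was at 18.6, 15.0 and 15.8 FPKM in the astrocyte-labelled libraries and at 6.16, 7.32 and 6.26 FPKM in the neuron-labelled ones. It was the only member with every astrocyte-labelled value above every neuron-labelled value, 3.01-fold between the controls. Slc38a1 was at 0.0910, 0.132 and 0.0977 FPKM in the astrocyte-labelled libraries and at 1.37, 1.61 and 1.19 FPKM in the neuron-labelled ones. Slc38a3 was at 0.0119, 0.0451 and 0.0311 FPKM and at 7.31, 7.11 and 6.58 FPKM in the same order. Its difference between the controls, -9.26, was the largest of the members, and 0.672% of compared genes lay as low or lower. At 0.0119 FPKM the lower value has no error, so the size of that gap is uncertain.

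Both exchangers of small neutral amino acids were within 2-fold between the controls. Slc1a4 was at 1.61, 1.87 and 1.90 FPKM in the astrocyte-labelled libraries and at 1.62, 1.81 and 1.62 FPKM in the neuron-labelled ones. It was the only member whose values overlapped between the cell types, with a difference of -0.02 between the controls. Slc1a5 was at 0.505, 0.695 and 0.612 FPKM and at 0.811, 1.18 and 2.32 FPKM in the same order, and was below 1 FPKM in both controls. Over the 3 libraries of each label, 8 members were higher in every neuron-labelled library and 1 in every astrocyte-labelled library. The same was true of 41.6% and 30.6% of the 7754 genes that had 6 values and reached 1 FPKM at least once.

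**Figure D2:**
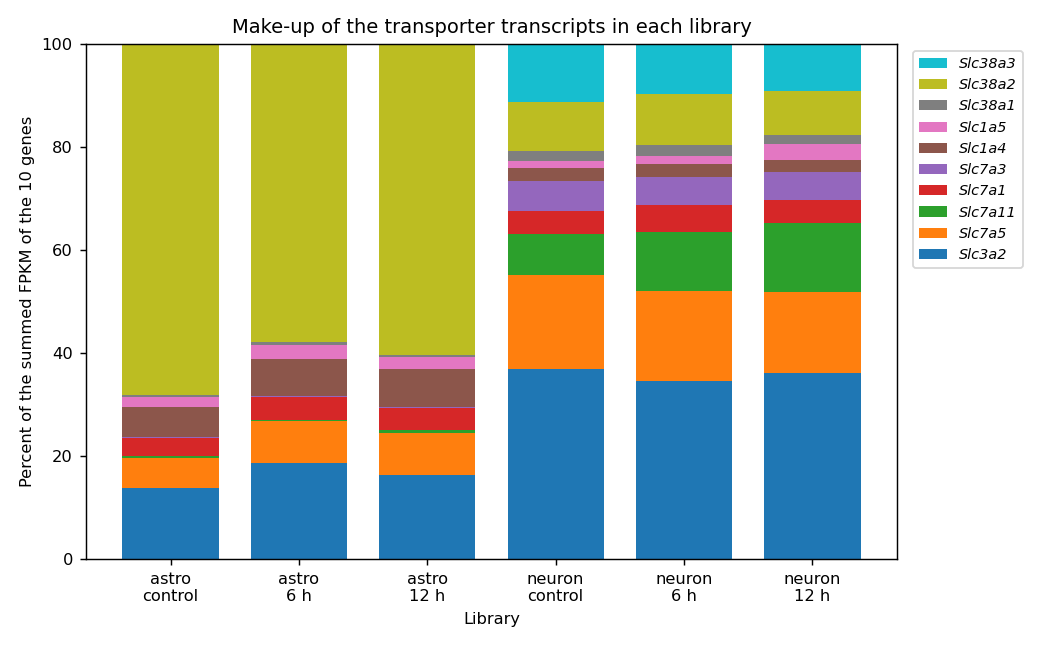
Share of each gene in the summed FPKM of the 10 genes, as stacked percentages, 1 bar per library. Slc38a2 takes 57.7% to 68.2% of the astrocyte-labelled bars and 8.64% to 9.92% of the neuron-labelled bars, and the Slc7a11 segment goes from 8.08% in the neuron-labelled control to 13.5% at 12 h.

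After insulin in the neuron-labelled cultures, Slc1a5 rose at 12 h and the other 9 genes stayed within 2-fold of the control at both times. All 10 were compared at each time. At 6 h none reached 2-fold in either direction, where 2.89% of all 6610 compared genes did. At 12 h 1 of 10 was at least 2-fold higher and none lower, where 2.39% and 1.45% of all 6641 genes were. The median of the members was 0.20 at 6 h and 0.03 at 12 h, and that of all genes was 0.14 at both times. Above the all-gene median lay 6 members at 6 h and 3 at 12 h. More symbols carried a value in the insulin libraries (25510 and 25528) than in the control (23927), which bears on the all-gene median under shared quantiles, so the members are read against that median.

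Slc1a5, the glutamine exchanger, went from 0.811 FPKM in the control to 1.18 FPKM at 6 h and 2.32 FPKM at 12 h. Its difference was 0.54 at 6 h and 1.52 at 12 h, and the 12 h library stood 0.97 above the 6 h library. At 12 h 0.693% of compared genes lay as high or higher, at 6 h 9.91%. Among genes whose higher library was at 1 to 5 FPKM, where Slc1a5 lies, 2.62% were at least 2-fold higher at 12 h. The 12 h difference was 0.87 on the scale log2(FPKM + 1), short of 2-fold, because the gene is low. Slc1a4, of the same family, was at 1.62, 1.81 and 1.62 FPKM, so the ratio of Slc1a4 to Slc1a5 was 2.00 before insulin, 1.53 after 6 h and 0.696 after 12 h.

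Some markers of other cells also differed from the control in the same library. The smooth muscle gene Tagln was at 4.35, 6.53 and 10.3 FPKM in the neuron-labelled control, 6 h and 12 h libraries, a difference of 1.25 at 12 h, while Acta2 and Cnn1 stayed below 0.1 FPKM. The 6 genes of that list summed to 4.52, 6.72 and 10.6 FPKM. Microglia markers summed to 0.117, 0.204 and 0.252 FPKM and fibroblast markers to 0.0697, 0.113 and 0.249 FPKM, over 5 genes each, none of them at 1 FPKM. Of genes below 1 FPKM in both libraries, 19.3% were at least 2-fold higher at 12 h in these cultures, so such differences are common at these levels. Ependymal markers summed to 1.36, 1.34 and 2.20 FPKM over 3 genes, of which Foxj1 differed by -0.01 at 6 h and 0.67 at 12 h. Neuron markers summed to 54.7, 59.1 and 55.9 FPKM, and among them the GABA synthesis genes Gad1 and Gad2 differed by -0.77 and -0.52 at 12 h. Astrocyte markers summed to 369, 383 and 345 FPKM and oligodendrocyte lineage markers to 117, 111 and 118 FPKM, and endothelial markers to 0.024 FPKM or less. Their part in the Slc1a5 result was not tested.

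Slc7a11 had the largest difference of the members at 6 h in these cultures and the second largest at 12 h. It was at 5.25 FPKM before insulin, 8.58 FPKM after 6 h and 9.78 FPKM after 12 h. Both insulin libraries lay above the control, by 0.71 at 6 h and 0.90 at 12 h, which is 1.63-fold and 1.86-fold. At 6 h 4.60% of compared genes lay as high or higher, and at 12 h 3.13%. At a 1.5-fold limit 1 member was higher at 6 h, Slc7a11, and 2 were at 12 h, Slc7a11 and Slc1a5, where 8.28% and 10.7% of all genes were. Counts of 1 and 2 among 10 genes do not set the members apart from that share.

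The other carriers of this culture lay between -0.20 and 0.37 of the control. Slc3a2 differed by 0.09 at 6 h and 0.13 at 12 h, and Slc7a5 by 0.11 and -0.06, both below the all-gene median at both times. Slc7a1 differed by 0.37 and 0.16 and Slc7a3 by 0.12 and 0.04. Slc38a1 differed by 0.24 and -0.20, Slc38a2 by 0.25 and 0.02, Slc38a3 by -0.04 and -0.15 and Slc1a4 by 0.15 and -0.01. Centring on genes at 5 FPKM or more takes off 0.13 at 6 h and 0.14 at 12 h. Below 0 only after centring were the 12 h differences of Slc3a2, Slc7a3 and Slc38a2 and the 6 h differences of Slc3a2, Slc7a5 and Slc7a3. Those of Slc7a5, Slc38a1, Slc38a3 and Slc1a4 at 12 h and of Slc38a3 at 6 h were below 0 before and after it.

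The heavy chain and its light chains were set side by side in FPKM, which is per length, though the lengths used are not known. In the neuron-labelled control Slc3a2 stood at 1.31 times the summed FPKM of 6 light chain genes, Slc7a5, Slc7a6, Slc7a7, Slc7a8, Slc7a10 and Slc7a11. The ratio was 1.12 at 6 h and 1.17 at 12 h. Within the light chains Slc7a11 had a share of 28.7% before insulin, 37.6% after 6 h and 43.6% after 12 h, and Slc7a5 one of 64.6%, 56.0% and 50.5%. In the astrocyte-labelled libraries Slc7a5 held 64.1%, 63.0% and 63.0% and Slc7a11 3.68%, 2.165% and 3.64%, and the ratio of Slc3a2 to light chains was 1.498, 1.43 and 1.25. The light chain set was chosen with the values known, and RNA levels say nothing of the protein pairs.

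**Figure D3:**
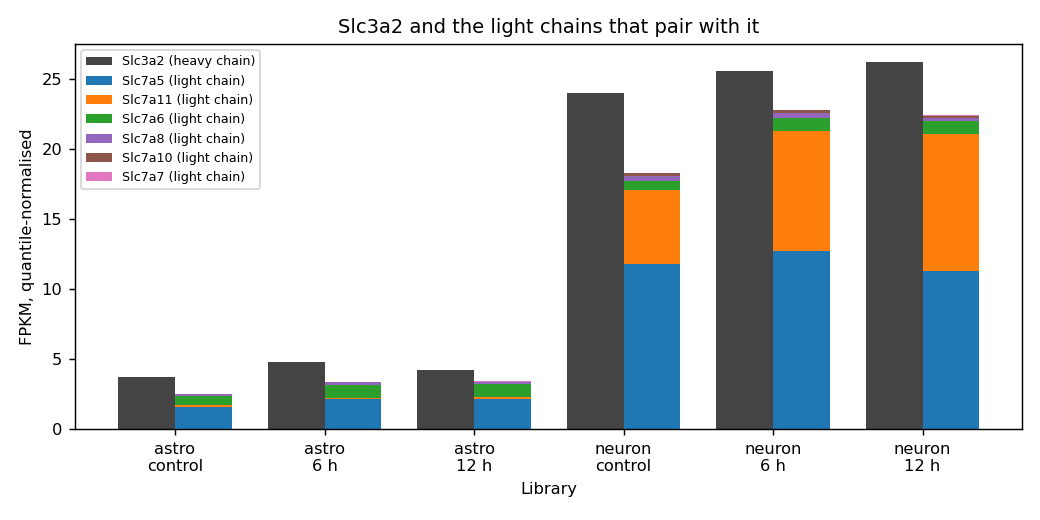
FPKM of the heavy chain gene Slc3a2 (dark bars) beside the stacked FPKM of the 6 light chain genes, 1 pair of bars per library. The light chain stack goes from 18.3 FPKM in the neuron-labelled control to 22.8 FPKM at 6 h and 22.4 FPKM at 12 h, the Slc7a11 segment goes from 5.25 to 8.58 and 9.78 FPKM, the Slc7a6 segment from 0.670 to 0.882 and 0.890 FPKM, and Slc7a5 lies between 11.3 and 12.8 FPKM.

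In the astrocyte-labelled cultures none of the 5 compared members reached 2-fold after insulin. The 5 were Slc3a2, Slc7a5, Slc7a1, Slc1a4 and Slc38a2. Over all genes, 1.93% of 6206 did at 6 h and 1.53% of 6221 at 12 h. The medians of the 5 were 0.30 at 6 h and 0.24 at 12 h, against 0.09 and 0.10 for all genes, and 4 of the 5 were above the all-gene median at each time. The exception at both times was Slc38a2.

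Slc7a5, the leucine carrier, was at 1.61 FPKM in the control and at 2.13 and 2.16 FPKM after insulin, a difference of 0.41 at 6 h and 0.42 at 12 h. At 6 h 12.0% of compared genes lay as high or higher, and at 12 h 8.97%. Slc3a2 differed by 0.36 at 6 h and 0.18 at 12 h, Slc7a1 by 0.30 and 0.29, and Slc1a4 by 0.22 and 0.24. These 4 had both insulin libraries above the control, also after centring. None of them reached 1.5-fold, which 4.56% of genes did in the upward direction at 6 h and 3.68% at 12 h.

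Slc38a2, the most abundant member there, was at 18.6 FPKM before insulin, 15.0 FPKM after 6 h and 15.8 FPKM after 12 h. Its differences were -0.30 and -0.23, and 8.62% and 10.7% of compared genes lay as low or lower. The summed FPKM of the 10 genes was 27.2, 26.0 and 26.2 in these libraries, and the share of Slc38a2 in it was 68.2%, 57.7% and 60.3%.

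The other 5 members were below 1 FPKM in all 3 astrocyte-labelled libraries and were not compared. Slc1a5 differed by 0.46 at 6 h and 0.28 at 12 h, Slc38a1 by 0.54 and 0.10, Slc7a3 by 0.26 and 0.12, and Slc7a11 by -0.33 and 0.43. Slc38a3 differed by 1.92 and 1.38, from 0.0119 FPKM. Of genes below 1 FPKM in both libraries, 18% differed by 2-fold or more at 6 h and 18.1% at 12 h, so a difference of that size at these levels is common.

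**Figure D4:**
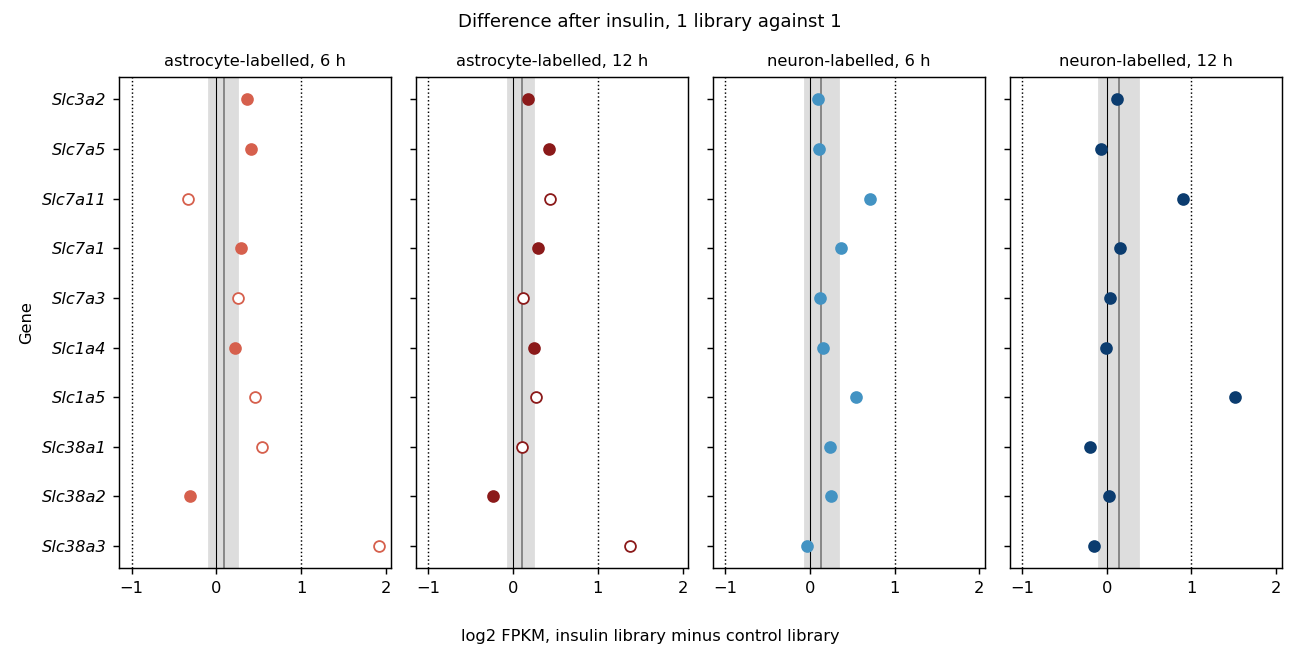
Difference in log2 FPKM between each insulin library and the control of the same cell type, 1 panel per comparison. Filled points are genes at 1 FPKM or more in either library and open points are genes below that, the grey band spans the middle 50% of all compared genes with their median as a grey line, and dotted lines mark 2-fold. Slc1a5 in the neuron-labelled 12 h panel (1.52) is the only filled point past a dotted line.

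Related genes were read from lists. Of 37 other amino acid transporter genes of the plasma membrane, 4 were compared in the astrocyte-labelled cultures at each time and 9 in the neuron-labelled ones, and none reached 2-fold. Their medians were 0.03 and 0.02 in the former and 0.01 and -0.22 in the latter, at 6 h and 12 h, below those of all genes. Slc1a1, a glutamate and cysteine carrier, was at 5.17, 6.76 and 3.95 FPKM in the astrocyte-labelled libraries and at 7.06, 5.91 and 5.77 FPKM in the neuron-labelled ones. Slc6a6, the taurine carrier, was at 5.49 FPKM in the astrocyte-labelled against 0.544 FPKM in the neuron-labelled control. Slc7a4, a relative of the cationic carriers, was at 2.16, 1.83 and 1.18 FPKM in the neuron-labelled libraries, and its 12 h difference of -0.86 was the largest of that list after insulin. Slc6a17 was at 1.96, 1.83 and 1.42 FPKM there. Between the controls the largest gaps of the list were those of Slc1a3, given above, of Slc6a17 at 0.0241 against 1.96 FPKM, of the neutral amino acid carrier gene Slc6a15 at 0.0236 against 1.04 FPKM, and of Slc7a4 at 0.169 against 2.16 FPKM, astrocyte-labelled value first.

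Genes of the ATF4 and amino acid response were read because several members are among the targets of that pathway. Of 21 listed 19 were found, and none reached 2-fold after insulin in either culture. In the neuron-labelled cultures 18 were compared, with medians of 0.20 at 6 h and 0.20 at 12 h against 0.14 for all genes. Above 0 were 14 of the 18 at each time, where 68.1% and 66.1% of all genes were. Mthfd2, a mitochondrial folate enzyme, was at 0.750, 1.49 and 1.10 FPKM, Asns, asparagine synthetase, at 3.21, 4.40 and 3.69 FPKM, and Atf4 itself at 133, 178 and 155 FPKM. Among those below 0 were Cebpb (-0.11) and Trib3 (-0.06) at 6 h, and Chac1 (-0.30) and Psat1 (-0.24) at 12 h. In the astrocyte-labelled cultures the medians were 0.05 over 13 genes at 6 h and 0.23 over 14 at 12 h. The leucine sensor gene Sesn2 was at 0.716, 1.02 and 1.23 FPKM there. Between the controls 12 of 17 compared were at least 2-fold higher in the neuron-labelled one and 1, Mthfd2, in the other. Of all compared genes, 21.9% were at least 2-fold higher in the neuron-labelled control. The largest gaps were those of Psat1, a serine synthesis enzyme, at 0.937 against 7.49 FPKM, of Pycr1, a proline synthesis enzyme, at 0.206 against 1.40 FPKM, of Ddit4, an inhibitor of mTORC1, at 0.797 against 5.11 FPKM, and of the pseudokinase gene Trib3 at 0.366 against 2.01 FPKM, astrocyte-labelled value first.

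Cytosolic aminoacyl-tRNA synthetases load amino acids onto tRNA. All 20 were found, under their older symbols, and none reached 2-fold after insulin. In the neuron-labelled cultures 18 of 19 compared were above 0 at each time, with medians of 0.46 at 6 h and 0.34 at 12 h against 0.14, where 68.1% and 66.1% of all genes were above 0. Tars was at 2.53, 3.96 and 3.61 FPKM and Rars at 1.42, 2.16 and 2.31 FPKM, and Qars was the exception at both times, at 3.69, 3.56 and 3.58 FPKM. In the astrocyte-labelled cultures 14 of 18 were above 0 at 6 h and 17 at 12 h, with medians of 0.17 and 0.28 against 0.09 and 0.10, where 63.9% and 67% of all genes were above 0. Between the controls the largest gaps were those of Nars at 4.02 against 9.38 FPKM, Aars at 3.70 against 8.05 FPKM, Yars at 1.07 against 2.25 FPKM and Dars at 4.47 against 2.29 FPKM, astrocyte-labelled value first. These genes and the members share the same libraries and controls.

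Of the glutathione and NRF2 list, none reached 2-fold after insulin. In the neuron-labelled cultures, where Slc7a11 differed by 0.71 and 0.90, Txnrd1, thioredoxin reductase, was at 4.09, 6.06 and 7.68 FPKM, a difference of 0.56 and 0.91. Gclm was at 1.45, 2.20 and 2.12 FPKM, and Gclc at 2.51, 3.37 and 3.09 FPKM. Hmox1, haem oxygenase, was at 111, 139 and 143 FPKM. Between the controls the largest gaps of the list were those of Hmox1, at 5.29 against 111 FPKM, of the sulfiredoxin gene Srxn1 at 0.607 against 6.23 FPKM, of the quinone reductase gene Nqo1 at 21.3 against 9.27 FPKM, and of Nfe2l2, which encodes NRF2, at 3.70 against 1.82 FPKM, astrocyte-labelled value first. In the neuron-labelled cultures the list's medians were 0.34 and 0.42 over 10 genes against 0.14 for all genes, with 9 above 0 at each time, where 68.1% and 66.1% of all genes were. Keap1, which holds NRF2 back, was the one below 0, by -0.26 at 6 h and -0.19 at 12 h. In the astrocyte-labelled cultures, where Slc7a11 was below 0.2 FPKM, they were 0.10 and 0.04 over 8 genes.

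Genes of glutamine and glutamate metabolism and of amino acid sensing by mTORC1 had no member past 2-fold after insulin either. Glutamine synthetase (Glul) was at 5.32, 4.20 and 3.29 FPKM in the astrocyte-labelled libraries and at 106, 106 and 77.7 FPKM in the neuron-labelled ones. Between the controls, Gad1 stood at 0.000865 against 5.78 FPKM, Gad2 at 0.000585 against 1.56 FPKM, and the alanine aminotransferase gene Gpt2 at 0.253 against 1.48 FPKM, astrocyte-labelled value first. The mTORC1 list had medians of 0.17 and 0.12 over 10 genes in the astrocyte-labelled cultures and of 0.06 and 0.03 over 12 and 13 genes in the neuron-labelled ones. The largest insulin differences of that list were 0.49 for Lamtor1 at 6 h in the astrocyte-labelled cultures and 0.48 for both Lamtor5 and Rheb at 12 h in the neuron-labelled ones. Between the controls its largest gaps were those of Flcn at 0.540 against 2.18 FPKM, Sesn3 at 0.642 against 1.51 FPKM, Mlst8 at 1.74 against 3.83 FPKM and Lamtor3 at 1.17 against 1.99 FPKM, astrocyte-labelled value first.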

How the data were processed

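RNA was measured in 6 libraries, and groups were taken from the sample titles. The values are log2 FPKM, which the authors quantile-normalised over the libraries, per the deposited table's name and its columns, which have equal quantiles. Base 2 was settled from the 45S pre-rRNA gene Rn45s: read as a natural log, its largest value of 13.67 at 8.679 kb would be 7502196 fragments, above the total to which FPKM is scaled. Partek 6.5, bcl2fastq 2.17.1.14 and the genome build Rnor 6.0 are named by the submitters' processing notes. No source read here gives an aligner or annotation. RNA libraries were stranded, per the labels' protocols, and no RefSeq gene overlapped a member.

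The table held 37185 rows and 37183 symbols, with the higher row kept for 2 repeated symbols and blanks left as no value. All 6 columns were used. Differences were computed with Python 3.11.15 and pandas 2.3.3 on the deposited scale, with no pseudocount, and the calculation was tested on simulated data. No test was run, since no group has a replicate. Alternatives were the scale log2(FPKM + 1), no minimum, a minimum of 5 FPKM, centring and a 1.5-fold limit. The members, lists and the rule for named genes (all members, and the 4 largest differences of each list in any comparison) were chosen with earlier results of these data known. Genes named beyond the rule, such as Gclc, Asns and Tars, were chosen after their values were seen. Promoter letters came from RefSeq GRCr8. Some single genes of the lists are not reported here.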

Additional observations from a re-analysis of the deposited data

Results flagged for a closer look

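Slc38a2 was below its control at both times in the astrocyte-labelled cultures, by -0.30 at 6 h and -0.23 at 12 h, and above it in the neuron-labelled cultures, by 0.25 at 6 h and 0.0235 at 12 h. None of these differences reached 1.5-fold. After centring on genes at 5 FPKM or more, the neuron-labelled values were 0.12 and -0.12, so at 12 h the direction was the same in both cell types. Both times of a cell type share 1 control library, and the difference between the cell types was not tested.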

How the results depend on the processing

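No paired analysis was possible because each group has 1 library. No replicate could be left out for the same reason, and no counting error can be given because depth is unknown. A median was taken as moved when it shifted by over 0.1. On the scale log2(FPKM + 1) the member median was 0.15 at 6 h in the astrocyte-labelled cultures and -2.18 between the controls, and 0 members were past 2-fold at 12 h in the neuron-labelled cultures, since Slc1a5 came to 0.87. With no minimum, 1 member, Slc38a3, was past 2-fold at 6 h and 1 at 12 h in the astrocyte-labelled cultures, and the median between the controls was -2.78. At 5 FPKM or more, the astrocyte-labelled medians were -0.30 and -0.23, those of Slc38a2 alone. Under that minimum 0 members were past 2-fold in the neuron-labelled cultures at 12 h, and 5 of 5 were between the controls. Centring gave medians of 0.069 at 6 h and -0.11 at 12 h in the neuron-labelled cultures. At 1.5-fold 1 member was counted at 6 h and 2 at 12 h there. Of 39 single-gene values, 20 moved by over 0.1 under centring and 15 on the scale log2(FPKM + 1). Centring takes off 1 value per comparison, over 0.1 only in the neuron-labelled cultures (0.13 at 6 h and 0.14 at 12 h). The 20 are therefore all member values after insulin there, and their count says nothing of single genes. No value that had reached 2-fold changed sign under any alternative.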
